A study of Mus musculus with 14 samples.

Results

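Genes that mark the steps of adult neurogenesis in the dentate gyrus were followed in hippocampal RNA: Nes, Sox2, Eomes, Neurod1, Igfbpl1, Sox11, Sox4, Dcx and Calb2. These 9 genes were taken by gene symbol from the 24421 genes of the count table, and all 9 passed the filter on low counts that left 14897 genes for testing. Total RNA had been sequenced from the hippocampi of 14 naive male mice of the strain labelled 129.C57Bl6 (C57BL/6 mixed with 129/SvJ, by the methods), 7 labelled LPAR2-/- and 7 labelled wild-type (WT). LPAR2 is a receptor for lysophosphatidic acid, and the knockout line, which lacks part of an exon of Lpar2, was bred as a homozygous colony beside the control colony, so that genotype and colony cannot be told apart. The sample labels give an age of 10 to 12 weeks for each mouse, whereas the design text of the series speaks of middle-aged to aged animals, and which of the 2 is right is not settled by the counts. The labels and the methods of the study name the hippocampus as the tissue, whereas its results speak of the dentate gyrus, and this too is not settled here.

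In the adult hippocampus new granule cells arise from stem cells in the subgranular zone of the dentate gyrus. Radial glia-like stem cells contain the intermediate filament nestin (Nes) and the transcription factor SOX2. Intermediate progenitors switch on Eomes, which encodes TBR2, and then Neurod1, a transcription factor needed for the survival of new neurons. Neuroblasts and immature neurons contain doublecortin (Dcx), a microtubule-binding protein, together with SOX11 and SOX4, which drive neuronal genes, and Igfbpl1. Calretinin (Calb2) is a calcium-binding protein of young granule cells that in mice is also made by interneurons and mossy cells. Sox2, Neurod1 and Sox4 are likewise active in other hippocampal cells, and in a bulk sample fewer cells of a type and less RNA per cell cannot be told apart.

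The libraries held between 15434620 and 23258949 counts, and the totals did not differ between the groups beyond their spread (two-sided exact permutation test, p = 0.893). Lpar2, the targeted gene, went against the labels: its level was 9.55 ± 1.41 CPM (counts scaled to a common library size; SD, n = 7) in the libraries labelled LPAR2-/- and 2.36 ± 0.676 in WT, and every library labelled LPAR2-/- lay above every WT library (log2 fold change 2.01 ± 0.16 SE, adjusted p = 8.22e-07, edgeR). Counts per gene do not separate transcripts that lack the deleted stretch. The direction of each difference given here therefore rests on the labels alone. Granule cell markers were abundant, with a summed level of 2051 to 3198 CPM over 13 genes and C1ql3 the highest at 607 CPM. A pair of libraries stood apart: the choroid plexus list summed to 290.5 CPM in LPAR2-/- mouse 2 against 26.4 to 52.0 in the others, and the CA1 pyramidal cell list to 434.9 CPM in WT mouse 2 against 106.6 to 233.6.

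Per kilobase of exon, which allows levels to be compared between genes, Calb2 was the most abundant of the 9 genes and Eomes the least. Calb2 reached 69.1 CPM per kb in the libraries labelled LPAR2-/- and 74.1 in WT, Neurod1 30.1 and 30.3, and Sox2 14.04 and 14.48. The ranges of these 3 genes over the 14 mice did not overlap each other or those of the other genes. Sox11 followed with 5.03 and 6.86 CPM per kb and Sox4 with 3.15 and 3.69, and their ranges overlapped. Dcx with 2.54 and 2.71, Nes with 2.63 and 2.58 and Igfbpl1 with 2.38 and 2.43 could not be ordered among themselves, since their ranges over the mice overlapped, and the lower Sox4 libraries fell among them. Eomes, at 0.387 and 0.502 CPM per kb, rested on 22 to 64 counts per library, and is the member measured with the least precision. No exon of any of the 9 genes was shared with another annotated gene on either strand.

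**Figure D1:**
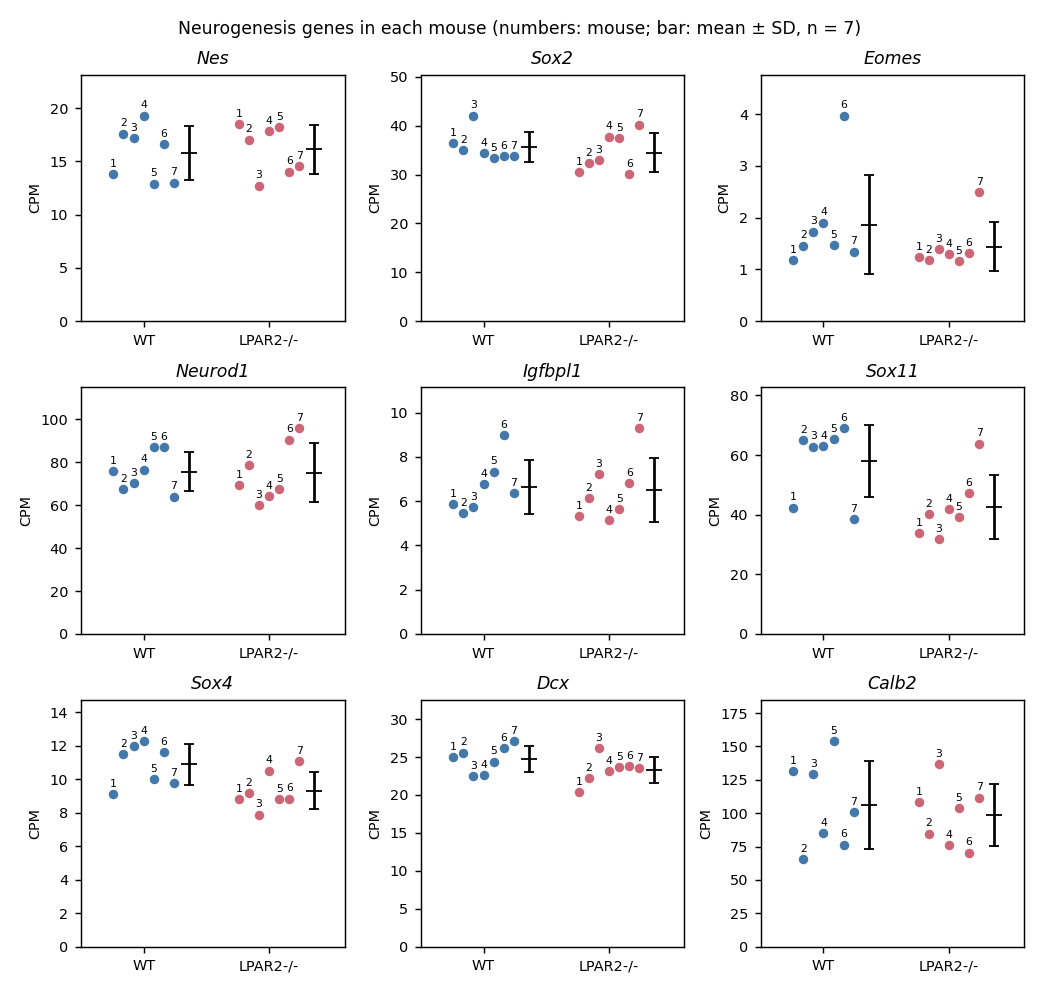
CPM of the 9 genes in each mouse, with WT in blue and libraries labelled LPAR2-/- in red; each point is 1 mouse, the number beside it is the mouse number within its group, and the bar is the mean ± SD (n = 7). In the Sox11, Sox4, Dcx and Eomes panels 6 or 7 of the 7 LPAR2-/- points lie below the WT median, and in the other panels 3 or 4 do. The groups overlap in every panel.

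None of the 9 genes passed the threshold of an adjusted p under 0.05 between the genotype labels by edgeR's quasi-likelihood test, and DESeq2 called 1 of them, Sox11. Over all tested genes edgeR called 6.77% (3.32% higher and 3.46% lower in the libraries labelled LPAR2-/-) and DESeq2 9.73%. At an unadjusted p under 0.05 edgeR gave 2 of the 9, Sox11 and Sox4, and 22.4% of all genes reached it. The fitted log2 fold change was below 0 for 8 of the 9 genes and above 0 for Nes alone, with a median of -0.09 against 0.0029 for all tested genes, but the sign of Neurod1, Igfbpl1, Nes and Calb2 changed with the fit. In none of the 9 genes were the groups apart without overlap, as they were in 1.77% of all tested genes.

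Sox11 had the largest difference of the 9. In the libraries labelled LPAR2-/- it was counted at 33.8, 40.2, 31.7, 41.8, 39.1, 47.3 and 63.8 CPM in mice 1 to 7, and in WT at 42.3, 65.05, 62.8, 63.0, 65.3, 68.9 and 38.5. WT mice 2 to 6 lay at 62.8 CPM or above, while WT mice 1 and 7 lay among the LPAR2-/- group and LPAR2-/- mouse 7 lay among the high WT mice. The ratio was 0.731 (95% interval 0.572 to 0.934; log2 fold change -0.45 ± 0.17 SE, adjusted p = 0.121, edgeR), and the two-sided exact permutation test of mean log2 CPM gave p = 0.0373 without adjustment. Adjusted p was 0.0425 with DESeq2, 0.00651 with the level of the granule cell list as a covariate, and 0.0327 without LPAR2-/- mouse 7, and it stayed above 0.05 in the other fits. Without LPAR2-/- mice 2 and 4, the pair with the most choroid plexus RNA, it was 0.266.

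Sox4, the close relative of Sox11, was at 8.82, 9.17, 7.88, 10.5, 8.79, 8.84 and 11.1 CPM in the libraries labelled LPAR2-/- and at 9.12, 11.5, 12.0, 12.3, 10.0, 11.6 and 9.74 in WT. All 7 LPAR2-/- libraries lay below the WT median of 11.5, and 4 lay below the lowest WT library. The ratio was 0.853 (95% interval 0.750 to 0.971; log2 fold change -0.23 ± 0.09 SE, adjusted p = 0.134, edgeR), with an exact permutation p of 0.0315 without adjustment. DESeq2 gave an adjusted p of 0.107.

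The promoters of Sox11 and Sox4 are shown because these 2 genes had the smallest p of the 9 between the genotype labels. The sequences are from RefSeq (GRCm38.p6), from 250 bases before the start to 50 after it, and capitals mark the E-box CANNTG, which reads the same on both strands and is the motif bound by basic helix-loop-helix factors such as NEUROD1. The Sox11 window is chr12:27342669-27342968 on the minus strand and the Sox4 window chr13:28953650-28953949 on the minus strand.
Sox11: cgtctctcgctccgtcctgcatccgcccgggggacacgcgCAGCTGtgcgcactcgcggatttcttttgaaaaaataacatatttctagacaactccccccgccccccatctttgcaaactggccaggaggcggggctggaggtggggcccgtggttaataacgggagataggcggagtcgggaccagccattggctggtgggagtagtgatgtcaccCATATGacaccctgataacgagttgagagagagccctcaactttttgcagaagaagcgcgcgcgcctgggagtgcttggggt
Sox4: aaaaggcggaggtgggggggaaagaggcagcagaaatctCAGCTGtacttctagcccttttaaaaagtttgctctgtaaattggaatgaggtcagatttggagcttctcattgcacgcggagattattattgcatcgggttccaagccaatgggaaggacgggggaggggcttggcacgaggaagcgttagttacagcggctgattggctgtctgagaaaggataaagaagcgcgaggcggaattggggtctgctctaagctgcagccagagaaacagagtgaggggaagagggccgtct
CAGCTG begins 210 bases before the start in Sox11 and 211 before it in Sox4, and Sox11 has a further E-box, CATATG, 32 bases before the start. An E-box of this form was in 72.3% of the 32851 promoters of the table, so that its presence is common. CAGATG or its complement CATCTG, the form preferred by NEUROD1 and its relatives, was in neither window, and in 17.2% of all promoters. Of the 9 genes, 7 had a promoter in the table and Igfbpl1 and Calb2 had none.

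Among the genes of stem cells, Nes was at 16.1 ± 2.3 CPM in the libraries labelled LPAR2-/- and 15.8 ± 2.5 in WT, ranging from 12.7 to 18.5 with a median of 17.1 and from 12.9 to 19.3 with a median of 16.6. The groups overlapped over nearly all of their range. The ratio was 1.02 (95% interval 0.872 to 1.20; adjusted p = 0.898, edgeR). Sox2 was at 34.5 ± 4.0 and 35.6 ± 3.1 CPM, ranging from 30.2 to 40.2 with a median of 32.9 and from 33.4 to 42.1 with a median of 34.5, with 4 LPAR2-/- libraries below the lowest WT library and none above the highest. Its ratio was 0.969 (95% interval 0.874 to 1.08; adjusted p = 0.760, edgeR).

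Among the genes of intermediate progenitors, Eomes lay between 1.16 and 1.39 CPM in 6 of the 7 libraries labelled LPAR2-/- and at 2.50 in mouse 7. In WT it lay between 1.181 and 1.90 CPM in 6 mice and at 3.97 in mouse 6. One mouse of each group therefore held much of the spread. The ratio was 0.774 (95% interval 0.527 to 1.14; adjusted p = 0.432, edgeR). The log2 fold change was -0.37, and it was -0.09 without WT mouse 6 and -0.54 without LPAR2-/- mouse 7. Neurod1, which mature granule cells also express, was at 75.2 ± 13.6 CPM in the libraries labelled LPAR2-/- and 75.6 ± 9.1 in WT. It ranged from 60.2 to 95.8 with a median of 69.2 and from 64.0 to 87.3 with a median of 75.9, and LPAR2-/- mice 6 and 7 lay above every WT mouse while mouse 3 lay below. Its ratio was 0.993 (95% interval 0.848 to 1.16; adjusted p = 0.974, edgeR).

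Among the genes of neuroblasts and immature neurons, Dcx was the steadiest of the 9. It was at 20.4, 22.2, 26.2, 23.2, 23.7, 23.8 and 23.6 CPM in the libraries labelled LPAR2-/-, with a median of 23.6 against 25.0 in WT. Of these 7 libraries, 6 lay below the WT median and 2 below the lowest WT library. WT libraries lay between 22.5 and 27.1. The coefficient of variation was 7.53% and 6.94%, below the medians of 9.54% and 8.74% over all tested genes. The ratio was 0.941 (95% interval 0.865 to 1.02; log2 fold change -0.09 ± 0.06 SE, adjusted p = 0.393, edgeR), so that a ratio below 0.865 lay outside the interval. Igfbpl1 was at 6.51 ± 1.44 and 6.64 ± 1.219 CPM with medians of 6.15 and 6.36, and its highest values, 9.28 and 8.99, were in LPAR2-/- mouse 7 and WT mouse 6, the same mice that were highest for Eomes. Its ratio was 0.979 (95% interval 0.799 to 1.20; adjusted p = 0.926, edgeR).

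Calb2 varied most in absolute level. It was at 108, 84.8, 137, 76.1, 104, 70.5 and 112 CPM in the libraries labelled LPAR2-/- and ranged from 65.6 to 154 with a median of 101 in WT. The LPAR2-/- values lay within the WT range. The ratio was 0.933 (95% interval 0.692 to 1.26; adjusted p = 0.814, edgeR). Calb2 and Lpar2 are both on chromosome 8 (chr8:110142538-110168206 and chr8:69822565-69831102, mm10), 40.3 Mb apart.

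**Figure D2:**
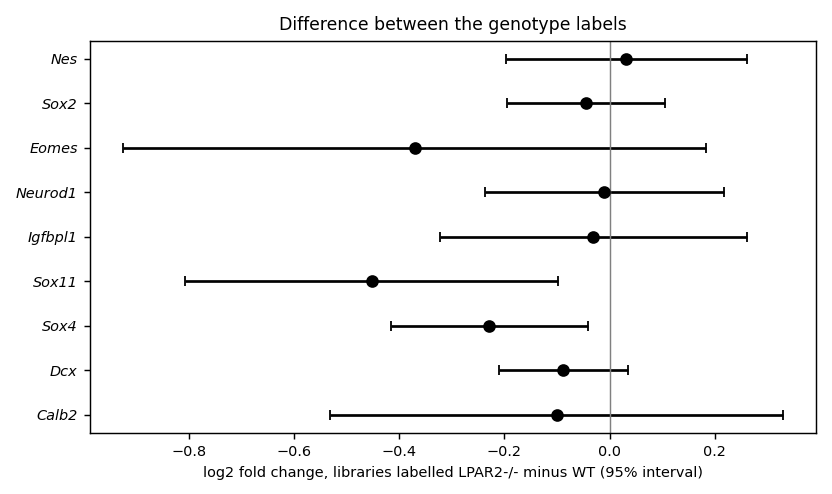
Log2 fold change of the 9 genes between the libraries labelled LPAR2-/- and WT, with the 95% interval from edgeR (7 mice per group). The intervals of Sox11 and Sox4 lie below 0 before adjustment and those of the other 7 genes include 0.

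The members were also compared between mice of one genotype. Over 36 pairs of the 9 genes, with each genotype centred on its own mean over 14 mice, no pair passed the Benjamini-Hochberg threshold, and 9 had an unadjusted permutation p under 0.05 for Pearson r. The highest were Eomes and Igfbpl1 (Pearson r = 0.78, permutation p = 0.00366, adjusted 0.0659; Spearman rho = 0.50, permutation p = 0.0684, adjusted 0.303) and Sox11 and Sox4 (r = 0.78, permutation p = 0.00235, adjusted 0.0659; rho = 0.66, permutation p = 0.0148, adjusted 0.211). Without the 2 mice farthest from the median of the first gene, r was 0.27 for Eomes and Igfbpl1 and 0.69 for Sox11 and Sox4, so that the first rests on LPAR2-/- mouse 7 and WT mouse 6. These 2 extreme mice were chosen anew for each pair by its first gene, and are not the same mice throughout. Within the libraries labelled LPAR2-/- and within WT, r was 0.79 and 0.76 for Sox11 and Sox4. Sox11 and Neurod1 had r = 0.71 (permutation p = 0.00583, adjusted 0.0700) and rho = 0.70 (permutation p = 0.00571, adjusted 0.206), and r = 0.53 without the 2 extreme mice. Sox11 and Eomes had r = 0.65 (permutation p = 0.0112, adjusted 0.0973) and rho = 0.62 (permutation p = 0.0316, adjusted 0.251), and r = 0.48 without the 2 extreme mice. Neurod1 and Igfbpl1 had r = 0.67 (permutation p = 0.0135, adjusted 0.0973) and rho = 0.55 (permutation p = 0.0661, adjusted 0.303), and r = 0.53 without the 2 extreme mice. Sox4 and Nes had r = 0.59 (permutation p = 0.0373, adjusted 0.160) and rho = 0.51 (permutation p = 0.0756, adjusted 0.303). Without the 2 extreme mice r of Sox4 and Nes was 0.78 (adjusted permutation p = 0.0994), and it was 0.24 within the libraries labelled LPAR2-/- and 0.91 within WT. Sox4 and Eomes had r = 0.59 (adjusted permutation p = 0.130; rho = 0.66, adjusted 0.211), r = 0.51 without the 2 extreme mice, and Neurod1 and Eomes r = 0.52 (adjusted permutation p = 0.160; rho = 0.44, adjusted 0.377), r = 0.42 without them. The 1 negative pair among the 9 was Dcx and Nes (r = -0.64, permutation p = 0.0206, adjusted 0.124; rho = -0.54, permutation p = 0.0567, adjusted 0.303), and r was -0.58 without the 2 extreme mice.

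Part of this covariation moved with the whole library. The leading axis of all tested genes took 24.8% of their variance between mice, and its r with the members, given as a description, was 0.94 for Neurod1, 0.72 for Sox11, 0.57 for Igfbpl1, 0.52 for Eomes and 0.38 for Sox4, against -0.22 for Dcx, -0.14 for Sox2, -0.02 for Nes and -0.26 for Calb2. After the axis was taken out of both genes, r of the 9 pairs was 0.14 for Sox11 and Neurod1, 0.11 for Neurod1 and Eomes, 0.46 for Sox11 and Eomes, 0.49 for Sox4 and Eomes, 0.51 for Neurod1 and Igfbpl1, 0.65 for Sox4 and Nes, 0.70 for Eomes and Igfbpl1, 0.78 for Sox11 and Sox4 and -0.66 for Dcx and Nes. The granule cell list moved the same way: its highest sums were 3198 and 3120 CPM in LPAR2-/- mice 6 and 7 and 3051 in WT mouse 6, the mice with the highest axis values, and its part in these correlations was not tested. With Neurod1, 14.7% of all tested genes had an r above 0.7 in size, with Sox11 13.4%, with Dcx 0.564% and with Calb2 0.832%.

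**Figure D3:**
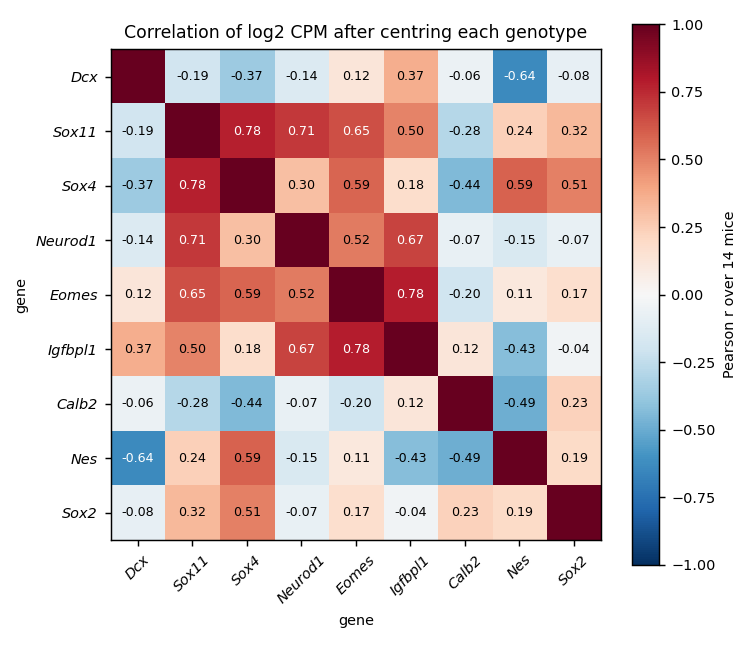
Pearson r between the 9 genes over 14 mice, from log2 CPM centred within each genotype; red is positive and blue negative. The block of Sox11, Sox4, Neurod1, Eomes and Igfbpl1 is positive throughout, and Dcx is negative with Nes at -0.64.

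**Figure D4:**
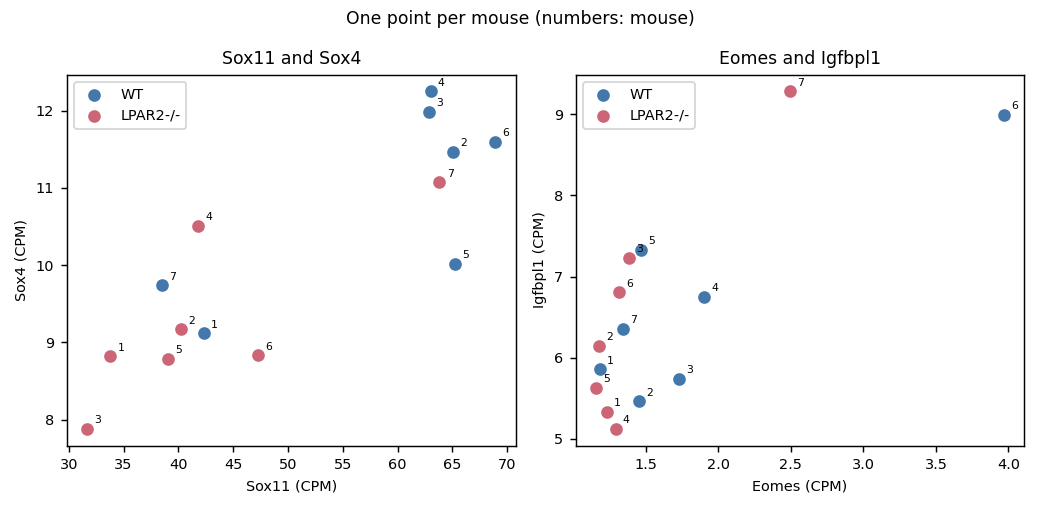
CPM of Sox11 against Sox4 (left) and of Eomes against Igfbpl1 (right), 1 point per mouse with its number, WT in blue and libraries labelled LPAR2-/- in red. In the right panel LPAR2-/- mouse 7 and WT mouse 6 lie apart at the upper end.

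The genes whose centred level was most like Dcx over the 14 mice were Spef2 (r = 0.87), Col5a3 (0.86), Onecut2 (0.85), Fancb (0.84) and Ppp1r36 (0.81). Those most like Calb2 were Opa3 (r = 0.89), Adcyap1 (0.87), Stk32b (0.86), P2rx5 (0.85) and Sh3gl3 (0.84). No member was among them.

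The other genes of the pathway were taken as 4 lists of 73 genes, of which 69 were tested and edgeR called 7, beside 6.77% of all tested genes (DESeq2 called 9.73% of all, and 22.4% had an unadjusted p under 0.05). Among genes of stem and radial glia-like cells edgeR called 3 of 14 lower and 0 higher, with 7 at an unadjusted p under 0.05, and DESeq2 called 3 lower and 1 higher. Hopx, a marker of quiescent stem cells that astrocytes also express, was at 67.0, 59.2, 62.6, 62.6, 64.0, 55.1 and 57.2 CPM in the libraries labelled LPAR2-/- and at 66.9 to 86.8 in WT. Of these, 6 lay below every WT library (log2 fold change -0.33 ± 0.06 SE, adjusted p = 0.00563, edgeR). Id4, an inhibitor of basic helix-loop-helix factors that holds stem cells in quiescence, was at 38.9 ± 3.0 against 50.5 ± 9.1 CPM (log2 fold change -0.38 ± 0.10 SE, adjusted p = 0.0349, edgeR). Thbs4, a secreted thrombospondin of astrocytes, was at 3.61 ± 1.31 against 8.94 ± 3.96 CPM (log2 fold change -1.29 ± 0.31 SE, adjusted p = 0.0247, edgeR). The list's median log2 fold change was -0.03, and of its 14 genes 8 lay below 0. Cbs of the astrocyte list also fell (log2 fold change -0.33 ± 0.09 SE, adjusted p = 0.0303, edgeR), the only 1 of the 8 astrocyte genes called, while the summed list covered 3859 to 4516 CPM in the libraries labelled LPAR2-/- and 3999 to 4623 in WT.

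Of 13 tested genes of dividing progenitors, such as Mki67 and Pcna, none was called by edgeR, 0 had an unadjusted p under 0.05 and DESeq2 called 0, where 6.77% of all tested genes were called by edgeR, 22.4% had an unadjusted p under 0.05 and DESeq2 called 9.73%. Their summed level was 204.5 to 223.3 CPM in the libraries labelled LPAR2-/- and 200.9 to 212.6 in WT. Ccnd2, the most abundant gene of the list, had a mean of 96.0 CPM, and Mki67 was at 4.25 against 4.19 CPM. The sum therefore says little of the genes at low level. Of 22 tested genes of progenitors and immature neurons edgeR called 1 lower and DESeq2 2, and neither called any higher. The 1 gene was Dpysl3, a regulator of axon growth, at 51.4 ± 7.4 against 62.9 ± 4.9 CPM (log2 fold change -0.29 ± 0.08 SE, adjusted p = 0.0455, edgeR), and 5 of the list had an unadjusted p under 0.05. Of these 22, 19 lay below 0 and the median was -0.10, beside 48.9% of all tested genes below 0 and a median of 0.0029. The list summed to 1827 and 1870 CPM in LPAR2-/- mice 6 and 7 and to 2111 to 2372 in the other 12 mice. The CA3 pyramidal cell list was lowest in the same pair of mice, at 196.7 and 204.3 CPM against 282.2 to 514.1 in the others, and its part in the list was not tested.

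Among 20 tested niche factors edgeR called 2 higher and 1 lower, and DESeq2 3 higher and 2 lower, where edgeR called 6.77% and DESeq2 9.73% of all tested genes. Vegfa, a growth factor of vessels and of stem cells, was at 55.3, 51.7, 56.0, 58.5, 60.5, 56.25 and 54.3 CPM in the libraries labelled LPAR2-/- and at 65.7 to 79.9 in WT, without overlap (log2 fold change -0.36 ± 0.05 SE, adjusted p = 0.000307, edgeR). Sfrp1, a secreted Wnt inhibitor, was at 8.45 ± 2.74 against 4.00 ± 1.14 CPM (log2 fold change 1.07 ± 0.22 SE, adjusted p = 0.0109, edgeR). Of the LPAR2-/- mice it was lowest in mouse 3 at 4.46 CPM and highest in mouse 5 at 12.7. The sum of the meninges list, given below, was also lowest and highest in these mice, at 81.0 and 456.2 CPM. In WT both were highest in mouse 4, at 5.70 and 330.1 CPM, but lowest in different mice. The part of meningeal RNA in Sfrp1 was not tested. Nrg1, a ligand of ErbB receptors, was at 1.42 ± 0.43 against 0.777 ± 0.227 CPM (log2 fold change 0.88 ± 0.23 SE, adjusted p = 0.0321, edgeR), and LPAR2-/- mouse 7, at 0.576 CPM, lay among the WT mice. Like Lpar2, Sfrp1 and Nrg1 are on chromosome 8, at chr8:23411502-23449632 and chr8:31818028-31918203 (mm10). Over the 14 fits without 1 mouse, Id4 and Dpysl3 lost their call in 10 (Id4 in all but those without LPAR2-/- mice 5 and 6 and WT mice 1 and 7, Dpysl3 in all but those without LPAR2-/- mice 3, 5 and 6 and WT mouse 6), Nrg1 in 7 (without LPAR2-/- mouse 1, 4 or 5 or WT mouse 2, 3, 4 or 6) and Thbs4 in 3 (without LPAR2-/- mouse 1, WT mouse 2 or WT mouse 4), and all 4 lost it without LPAR2-/- mice 2 and 4, where the adjusted p by edgeR was 0.109 for Id4, 0.135 for Dpysl3, 0.107 for Nrg1 and 0.0825 for Thbs4. Over the 9 alternative fits, that one included, the log2 fold change was -0.377 to -0.348 for Id4, -0.299 to -0.270 for Dpysl3 and -1.30 to -1.18 for Thbs4. For Nrg1 it was 0.821 to 0.903 over the 8 that tested it.

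**Figure D5:**
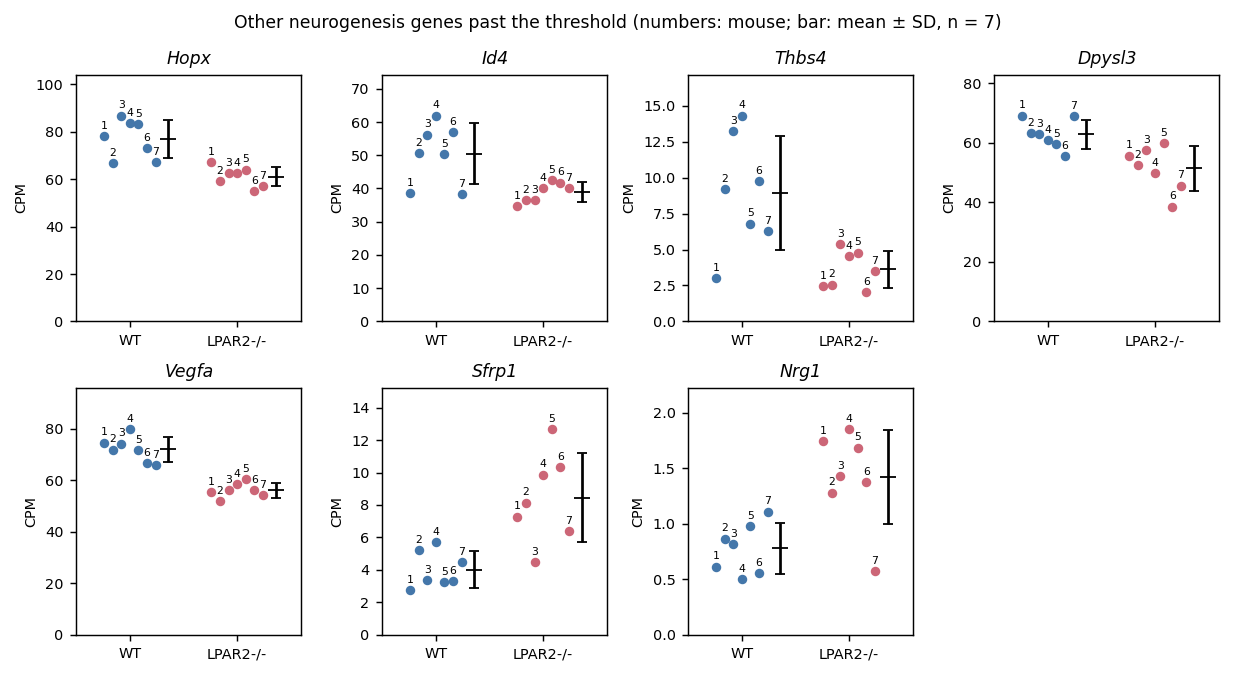
CPM of the 7 further neurogenesis genes that passed the threshold, in each mouse, with the mean ± SD (n = 7); WT in blue and libraries labelled LPAR2-/- in red. Vegfa is the only panel without overlap between the groups.

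Markers of other cells were read beside these results as 16 lists, in which edgeR called 5 of 119 tested genes (2 genes stand in 2 lists each), beside 6.77% of all tested genes (22.4% of all had an unadjusted p under 0.05). Granule cell genes gave 1, Tdo2 (log2 fold change 0.45 ± 0.11 SE, adjusted p = 0.0244, edgeR), and their sum covered 2051 to 3198 CPM in the libraries labelled LPAR2-/- and 2185 to 3051 in WT. Gpr17 of committed oligodendrocyte precursors fell (log2 fold change -0.66 ± 0.11 SE, adjusted p = 0.00287, edgeR), Hdc of the ependyma list rose (0.72 ± 0.18, adjusted p = 0.0264, edgeR) and Lum of the meninges list rose (0.54 ± 0.12, adjusted p = 0.0132, edgeR). The meninges list summed to 81.0 to 456.2 CPM in the libraries labelled LPAR2-/- and 56.9 to 330.1 in WT, with a median log2 fold change of 1.09 over its 9 genes, of which 7 had an unadjusted p under 0.05. Of 10 oligodendrocyte precursor genes 4 had one, in both directions, and 6 of the 10 lay below 0, with sums of 211.7 to 372.0 and 260.9 to 338.2 CPM. Of 8 striatal genes, which would also mark outside tissue, 5 had one, edgeR called 0 and DESeq2 called 1 higher, with sums of 142.2 to 159.6 and 142.2 to 165.3 CPM. Calretinin interneuron genes, beside Calb2, had none of 7 called by edgeR and 1 at an unadjusted p under 0.05, and summed to 109.5 to 140.9 and 117.3 to 134.8 CPM. Mossy cell genes had none of 7 called and 2 at an unadjusted p under 0.05, with sums of 129.0 to 159.8 and 126.4 to 160.5 CPM. All 7 lay above 0, with a median log2 fold change of 0.21, and the median sums were 151.9 and 135.3 CPM. Neuroblast genes of the subventricular zone, which would mark tissue from outside the hippocampus, had none of 8 called and 1 at an unadjusted p under 0.05, with sums of 43.9 to 83.5 and 51.4 to 79.6 CPM. The endothelium and pericyte lists each had 0 called by edgeR and 2 genes at an unadjusted p under 0.05, with sums of 252.9 to 358.1 and 228.6 to 349.6 CPM for endothelium and 160.1 to 236.2 and 129.7 to 212.8 for pericytes. DESeq2 called 1 gene higher in each of the granule cell, striatum, endothelium and meninges lists, 2 higher in the ependyma list, 1 lower in each of the astrocyte and oligodendrocyte precursor lists and 0 in the other 9, where it called 9.73% of all tested genes. Over the fits without 1 mouse, Tdo2 lost its call without WT mouse 4 or 5, Hdc without LPAR2-/- mouse 4 or WT mouse 4, 5 or 6, and Cbs without LPAR2-/- mouse 1, 5 or 6 or WT mouse 3, 4, 6 or 7. The part of these cells in the results was not tested.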

How the data were processed

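RNA of 7 hippocampi per genotype label was sequenced after ribosomal depletion, and the deposited counts were made by the authors with cutadapt 1.18, STAR (mm10) and featureCounts 1.6.3, counting exons per gene on the reverse strand. A second, normalised table and the authors' own DESeq2 1.22.2 comparison were not used here. The members and gene lists were chosen with earlier results of these data known. Counts were scaled by TMM to CPM, and log2 CPM used a prior count of 2. Genotype labels were compared with edgeR 4.0.16 (filterByExpr, robust quasi-likelihood F test, no covariates, Benjamini-Hochberg over 14897 genes, threshold 0.05), after a test on simulated data, and with DESeq2 1.42.0 as an alternative (R 4.3.3). Single genes were also compared by an exact permutation test over 3432 arrangements, whose smallest p is 0.000583, and correlations by 100000 permutations within genotype (Python 3.11.15). Nothing in the labels says how the 7 replicates of a group are related beyond being separate mice. Genes named are the 9 members, Lpar2, list genes past the threshold (at most 4 per list), the most abundant gene of a cell type list where its level is given, and the 5 genes most like Dcx and Calb2. Mki67, Pcna and Ccnd2 were named to describe their list.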

Additional observations from a re-analysis of the deposited data

Results flagged for a closer look

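A set of 3 values lay farther from the rest of their group of 7 than Dixon's 95% limit of 0.568 allows, among 42 groups examined; chance gives about 1 in 20. Eomes was 2.50 CPM in LPAR2-/- mouse 7, against 1.16 to 1.39 in the other 6 mice, and 3.97 CPM in WT mouse 6, against 1.181 to 1.90. Sox2 was 42.1 CPM in WT mouse 3, against 33.4 to 36.5 in the other 6 mice.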

How the results depend on the processing

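Results were recomputed under 9 alternatives and without each of the 14 mice in turn. Dcx, Sox11, Sox4, Eomes and Sox2 stayed below 0 in all of them. The count of members called was 1 (Sox11) instead of 0 with DESeq2 and with the granule cell level as a covariate, and 0 to 1 over the fits that left out 1 mouse, the 1 being without LPAR2-/- mouse 7. Over all genes, 494 were called higher and 515 lower. Leaving out 1 mouse gave 275 to 660 higher and 292 to 725 lower, the lowest of each without WT mouse 2 (over 1.5 times fewer also without LPAR2-/- mouse 1 and WT mouse 5, and for lower genes LPAR2-/- mouse 5 and WT mice 4 and 6), and the granule cell covariate gave 935 lower. Without LPAR2-/- mice 2 and 4, a choice made after seeing their choroid plexus RNA, 259 were higher and 221 lower; the fit then held 5 mice against 7, and the cause was not tested. Signs near 0 changed: Neurod1 was 0.0091 with upper quartile scaling, 0.019 without LPAR2-/- mice 2 and 4 and -0.077 to 0.037 without 1 mouse. Igfbpl1 was 0.047, Calb2 0.0050 and Nes -0.016 without LPAR2-/- mice 2 and 4, and without 1 mouse they covered -0.13 to 0.053, -0.20 to 0.012 and -0.012 to 0.087. Mouse numbers did not pair the samples over all tested genes (r -0.33 to 0.31, with 3 of 7 above 0.1). With the number as a replicate block the SE of Calb2 fell from 0.201 to 0.0966 and that of Sox11 rose from 0.165 to 0.183. That block gave 314 genes higher and 272 lower, no member was called, and Nrg1 and Lum lost their call (adjusted p = 0.104 and 0.0534, edgeR). Dpysl3 also lost it with upper quartile scaling and with no filter (adjusted p = 0.0704 and 0.0555, edgeR). Without 1 mouse the call was lost in 10 of 14 fits for Id4 and Dpysl3, 7 for Nrg1 and Cbs, 4 for Hdc, 3 for Thbs4 and 2 for Tdo2, and without LPAR2-/- mice 2 and 4 all 7 lost it. Hopx, Vegfa, Sfrp1 and Gpr17 kept theirs in every fit. No pair of members passed with other size factors or without the 2 extreme mice. Of the 9 members, Eomes had the fewest counts (22 to 64 per library), and Nrg1 of the niche list had 9 to 43.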
